A study of Homo sapiens with 6 samples.

Results

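The genes described here encode parts of the actin cytoskeleton and were measured in SNU449, an established line from a human hepatocellular carcinoma: actins, tropomyosins, myosins, proteins that crosslink, cap or sever actin filaments, proteins of focal adhesions, and the transcription factor SRF with its co-activators. They were chosen by gene symbol, from a list of 59 genes, of which 58 had a row among the 17153 genes of the files. MYOCD was not analysed here. The groups were cells transfected for 48 h with a control siRNA (siControl, 3 libraries) or with siOXTR, an siRNA against the oxytocin receptor gene OXTR (3 libraries). An siRNA is a short RNA duplex through which cells cut mRNAs that match it. All 6 libraries came from the same parental line, and the labels do not say whether libraries of a group came from separate cultures, so the spread between them may be technical. Neither the sequence of siOXTR nor the number of siRNAs in it is given in the sources used here.

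Actin filaments grow by addition of actin monomers, and cells hold a reserve of monomers bound by profilin and thymosins. Myosin II pulls on filaments that tropomyosin and caldesmon decorate, and focal adhesions tie the filaments through vinculin, talin and integrins to the matrix. Monomeric actin also binds the co-activators MRTFA and MRTFB. When monomers are used up, the co-activators enter the nucleus and, with SRF, drive genes that carry a CArG box, among them many actin and adhesion genes.

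Levels are in FPKM, fragment counts scaled by gene length and by the mapped fragments of the library. Values of the 3 libraries of a group are given in the order of their replicate numbers, and means are given ± SD with n = 3 libraries. Of the 58 genes, 56 reached 1 FPKM in at least 3 of the 6 libraries and entered a limma fit over 11655 genes. TNS1, a tensin gene, and VIL1, the gene of the intestinal filament-severing protein villin, did not, with at most 0.01 and 0.02 FPKM. A log2 change is the siOXTR minus the siControl mean of log2(FPKM + 1), a scale on which changes of weakly expressed genes come out too small. A gene is said to have risen or fallen where its limma p was at most 0.05 after Benjamini-Hochberg adjustment across the 11655 genes. The list was drawn up with the siOXTR and siControl values of these libraries already known, so changes and counts of members are given as a description and no p is given for the set.

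The targeted transcript, OXTR, was at 26.5, 26.6 and 24.6 FPKM in siControl and at 6.03, 6.11 and 6.14 FPKM in siOXTR, and the groups did not overlap. Its mean was 4.25-fold lower (log2 change -1.92, SE 0.04). The FPKM values of a library summed to between 412464 and 415902 in siControl and to between 424168 and 429456 in siOXTR. Over the genes tested, which do not count as replicates, log2 values of libraries correlated at 0.997 to 0.998 inside a group and at 0.922 to 0.923 between the groups. No library stood apart from its group. Of 10 hepatocyte markers with values, 8 stayed below 1 FPKM in every library, among them ALB and HNF4A, and APOB was listed at 0 throughout. The exceptions were SERPINA1 and FGB, and FGB carried most of the summed hepatocyte level, which was 43.6 to 44.6 FPKM in siControl and 4.43 to 4.97 FPKM in siOXTR. Of 5 epithelial markers, KRT8 and KRT18 reached 1 FPKM, and the list summed to 124 to 129 FPKM in siControl and to 170.0 to 174 FPKM in siOXTR, without overlap. The 4 endothelial markers summed to at most 0.370 FPKM. Of 7 smooth muscle markers with values, 4, MYH11 and DES among them, stayed below 1 FPKM in every library, and the list summed to 22.4 to 23.4 FPKM in siControl and to 18.3 to 19.9 FPKM in siOXTR. Of 4 leukocyte markers, PTPRC and CD68 reached 1 FPKM, and the list summed to 7.05 to 8.05 and to 11.3 to 13.1 FPKM. In bulk RNA, fewer cells with a transcript and less transcript per cell cannot be told apart.

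Most actin cytoskeleton genes were lower in the siOXTR libraries. Of the 56 tested, 42 fell (75.0%) and 8 rose (14.3%), while 82.5% of all genes tested passed in either direction, 44.8% falling and 37.7% rising. The other 6, ACTA2, TPM3, MYL12B, TLN1, FHL2 and TMSB10, did not pass. The median log2 change was -0.52 over the members and -0.06 over all genes tested. The groups did not overlap in 49 of the 56 (87.5%), against 83.0% of all genes tested. A fall of at least 1 on the log2 scale was seen in 12 members (21.4%), against 6.84% of all genes, and a rise of that size in 1 (1.79%), against 4.71%. Together the 58 genes took 4.53% ± 0.0241 of all FPKM in siControl and 2.70% ± 0.0146 in siOXTR, and the groups did not overlap. ACTB and TMSB4X alone took 1.90% ± 0.0199 and 0.922% ± 0.0229. In siControl, ACTB ranked between the first and the third place among all genes and TMSB4X was first or second, whereas in siOXTR ACTB lay between places 18 and 23 and TMSB4X was at place 6.

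**Figure D1:**
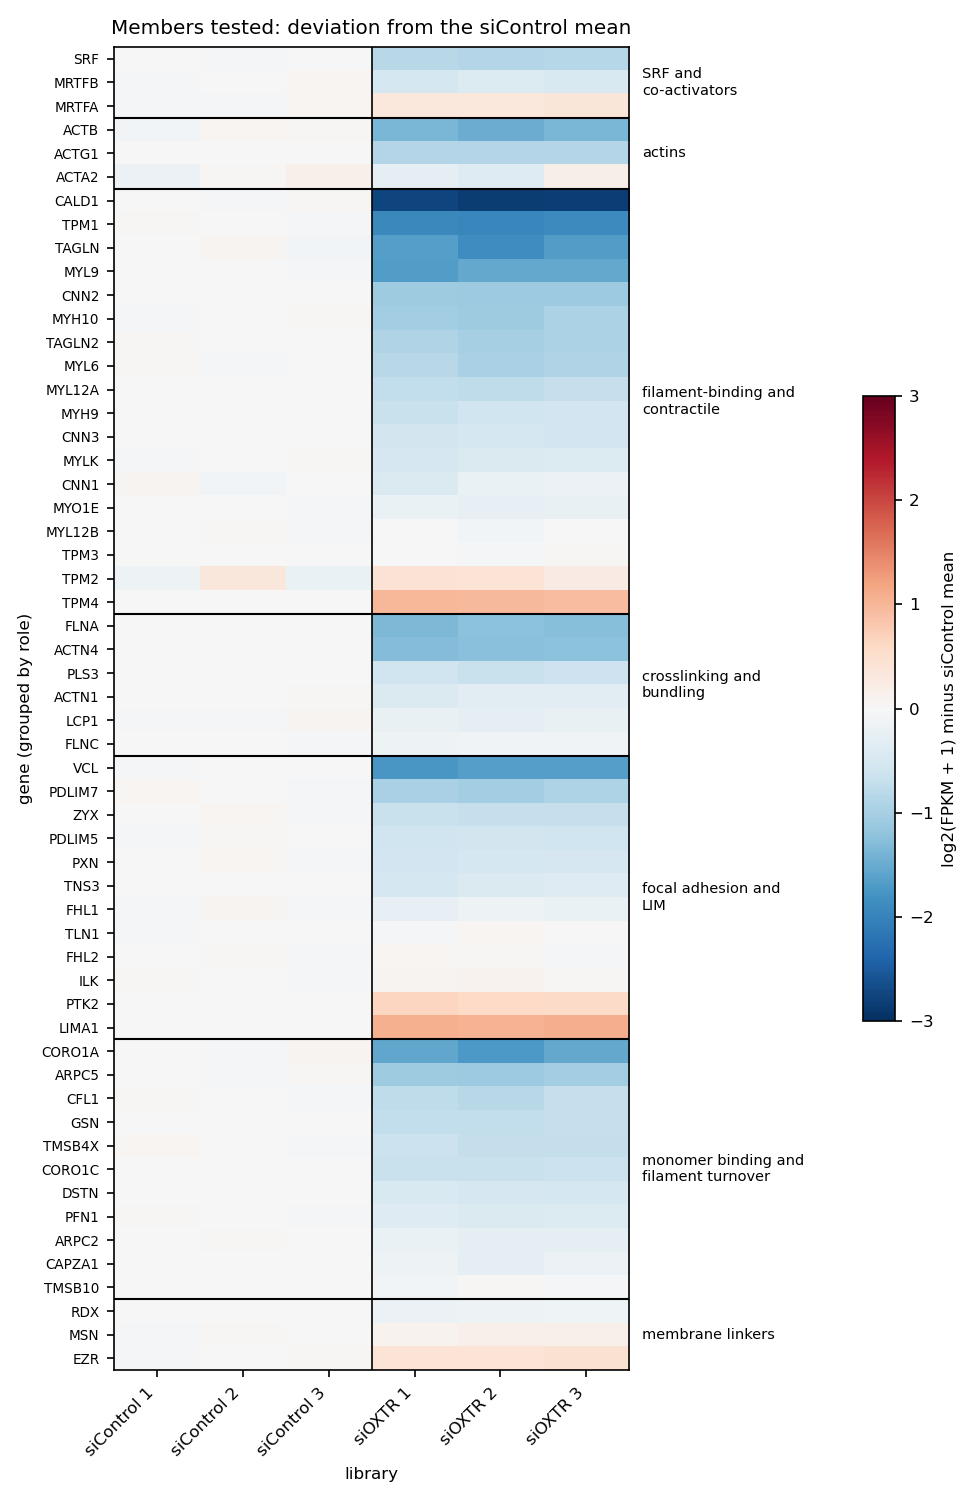
Deviation of log2(FPKM + 1) from the siControl mean for the 56 members tested, 1 row per gene and 1 column per library, grouped by role and sorted within each role by log2 change. Blue is below and red above the siControl mean; in every role except the membrane linkers most siOXTR cells are blue, CALD1 is the darkest at -2.81, and LIMA1 and TPM4 are the reddest at 1.06 and 0.96.

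SRF, the transcription factor that binds CArG boxes, fell, and its co-activator genes moved in opposite directions. SRF was at 13.8, 13.4 and 13.7 FPKM in siControl and at 7.23, 7.01 and 7.06 FPKM in siOXTR, a 1.92-fold lower mean (log2 change -0.85, SE 0.04). MRTFA was at 10.0, 9.96 and 10.7 FPKM in siControl and at 12.9, 12.9 and 13.4 FPKM in siOXTR, and it rose 1.28-fold (log2 change 0.33, SE 0.04). MRTFB was at 8.15, 8.55 and 8.88 FPKM in siControl and at 5.59, 6.22 and 5.89 FPKM in siOXTR (log2 change -0.47, SE 0.05). None of the 3 genes had overlapping groups: every siOXTR library was below every siControl library for SRF and MRTFB and above for MRTFA. The ratio of MRTFA to MRTFB was 1.17 to 1.23 in siControl and 2.08 to 2.32 in siOXTR.

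CArG boxes, which are pairs of C and of G bases around a core of A and T, were searched on both strands in the windows from 250 bases before to 50 bases after each annotated start of the RefSeq promoter table (build GRCh38.p14). Of 53 members with a window, 10 held a box in at least 1 window (18.9%), against 151 of the 9673 genes tested that had a window (1.56%). Counted over windows, the share was 10.9% of 110 for the members and 1.13% of 14090 for the genes tested. Over all 35116 windows of the promoter table it was 1.29%. The list names SRF and genes known as its targets, so these shares are a description without a test, and a match is only a run of letters. A box was found in 8 of the 39 members with a window that fell, in 1 of the 7 that rose and in 1 of the 6 that did neither. ACTB, MYL9, PTK2, TAGLN and VIL1 were not in the table. The stretches below show members that differed in direction although each held a box: SRF itself, with a pair of boxes, ACTG1, FLNA and CNN2, which fell, TPM4, which rose, and FHL2, which did neither. Each is the sequence upstream of a start, 5′ to 3′, with the box in capitals.
SRF (chr6:43171209-43171268, + strand): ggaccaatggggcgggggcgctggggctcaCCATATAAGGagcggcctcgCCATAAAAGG
ACTG1 (chr17:81512864-81512923, - strand): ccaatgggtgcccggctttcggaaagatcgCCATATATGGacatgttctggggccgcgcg
FLNA (chrX:154374699-154374758, - strand): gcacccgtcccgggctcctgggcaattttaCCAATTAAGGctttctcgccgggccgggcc
CNN2 (chr19:1026489-1026548, + strand): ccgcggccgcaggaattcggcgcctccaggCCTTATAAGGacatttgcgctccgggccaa
TPM4 (chr19:16067335-16067394, + strand): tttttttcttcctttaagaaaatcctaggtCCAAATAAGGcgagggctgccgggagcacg
FHL2 (chr2:105438585-105438644, - strand): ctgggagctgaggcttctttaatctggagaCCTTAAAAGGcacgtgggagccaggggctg
The first bases of the boxes lay 30 and 10 bases before the start in SRF, 94 in ACTG1, 94 in FLNA, 89 in CNN2 and 173 in TPM4. The other members with a box were MYLK, ACTN1, MYO1E and FHL1, all of which fell. FHL2 held boxes at 3 of its annotated starts. The stretch shown holds a single box that lay 101 bases before one start and 85 before another, so it was counted in more than 1 window. A different box lay 59 bases before the remaining start.

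The cytoplasmic actins fell, ACTB more than ACTG1. ACTB, which encodes beta-actin, was at 3661, 3989 and 3929.8 FPKM in siControl and at 1485, 1369 and 1502 FPKM in siOXTR, 2.66-fold lower (log2 change -1.41, SE 0.04). ACTG1, which encodes gamma-actin, fell from 1394 ± 13.6 to 759.8 ± 1.89 FPKM, 1.83-fold lower (log2 change -0.87, SE 0.02). Both sets of groups were far apart relative to their spread. ACTA2, the smooth muscle alpha-actin gene, was at 1.38, 1.75 and 2.0 FPKM in siControl and at 1.19, 1.07 and 2.07 FPKM in siOXTR, its groups overlapped, and its log2 change of -0.17 did not pass the threshold. Without siOXTR replicate 3, its highest library, the log2 change was -0.34 and passed (limma adjusted p = 0.0146). Leaving out any of the other libraries gave -0.06 to -0.26 with no call, and quantile scaling gave -0.02. ACTB stood at 2.65 to 2.84 times the level of ACTG1 in siControl and at 1.80 to 1.98 times in siOXTR. ACTG1 and ACTB have 20 and 10 pseudogenes named after them in GENCODE release 29, and the sources used here do not state how shared reads were assigned, so both levels are uncertain to that extent. The same limit holds for all 19 members with such pseudogenes, among them PFN1 (10), CFL1 (8), TPM3 (8), TMSB4X (6) and MYL6 (5). At exact windows of 50 bases, 0.347% of those of ACTB occurred in ACTG1 transcripts.

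The tropomyosins, which wind along filaments and set which motors and binding proteins can reach them, went in different directions. TPM1 was at 323, 318 and 309 FPKM in siControl and at 82.7, 81.3 and 83.4 FPKM in siOXTR, 3.84-fold lower (log2 change -1.93, SE 0.03). TPM4 was at 58.4, 58.7 and 59.9 FPKM in siControl and at 119, 116 and 113 FPKM in siOXTR, and it rose 1.97-fold (log2 change 0.96, SE 0.03). The groups of these genes were separated in opposite directions. TPM3 did not pass the threshold, with 199 ± 1.22 FPKM in siControl and 198 ± 5.90 in siOXTR (log2 change -0.01, or 0.06 under median-ratio scaling). TPM2 was scarce, at 2.57, 4.01 and 2.43 FPKM in siControl and at 4.34, 4.23 and 3.66 FPKM in siOXTR. It rose in the fit (log2 change 0.36, SE 0.13), but siControl replicate 2 lay inside the siOXTR range, so the groups overlapped. The call for TPM2 was lost without siControl replicate 1, siControl replicate 3, siOXTR replicate 1 or siOXTR replicate 2 (limma adjusted p from 0.0642 to 0.0935), with log2 changes from 0.26 to 0.34.

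The summed tropomyosin level was 569 to 584 FPKM in siControl and 394 to 406 FPKM in siOXTR. TPM1 made up 54.3% to 55.3% of it in siControl and 20.4% to 20.7% in siOXTR. The share of TPM3 was 34.2% to 34.8% in siControl and 48.8% to 50.4% in siOXTR. That of TPM4 was 9.99% to 10.5% in siControl and 28.0% to 29.5% in siOXTR. TPM1 was the most abundant tropomyosin transcript in every siControl library, and TPM3 was in every siOXTR library. TPM3 has 8 pseudogenes named after it, so its level and these shares are uncertain to that extent. The ratio of TPM1 to TPM4 was 5.16 to 5.54 in siControl and 0.697 to 0.738 in siOXTR, which at -2.89 on the log2 scale was the largest shift among the 32 paralog pairs compared.

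**Figure D2:**
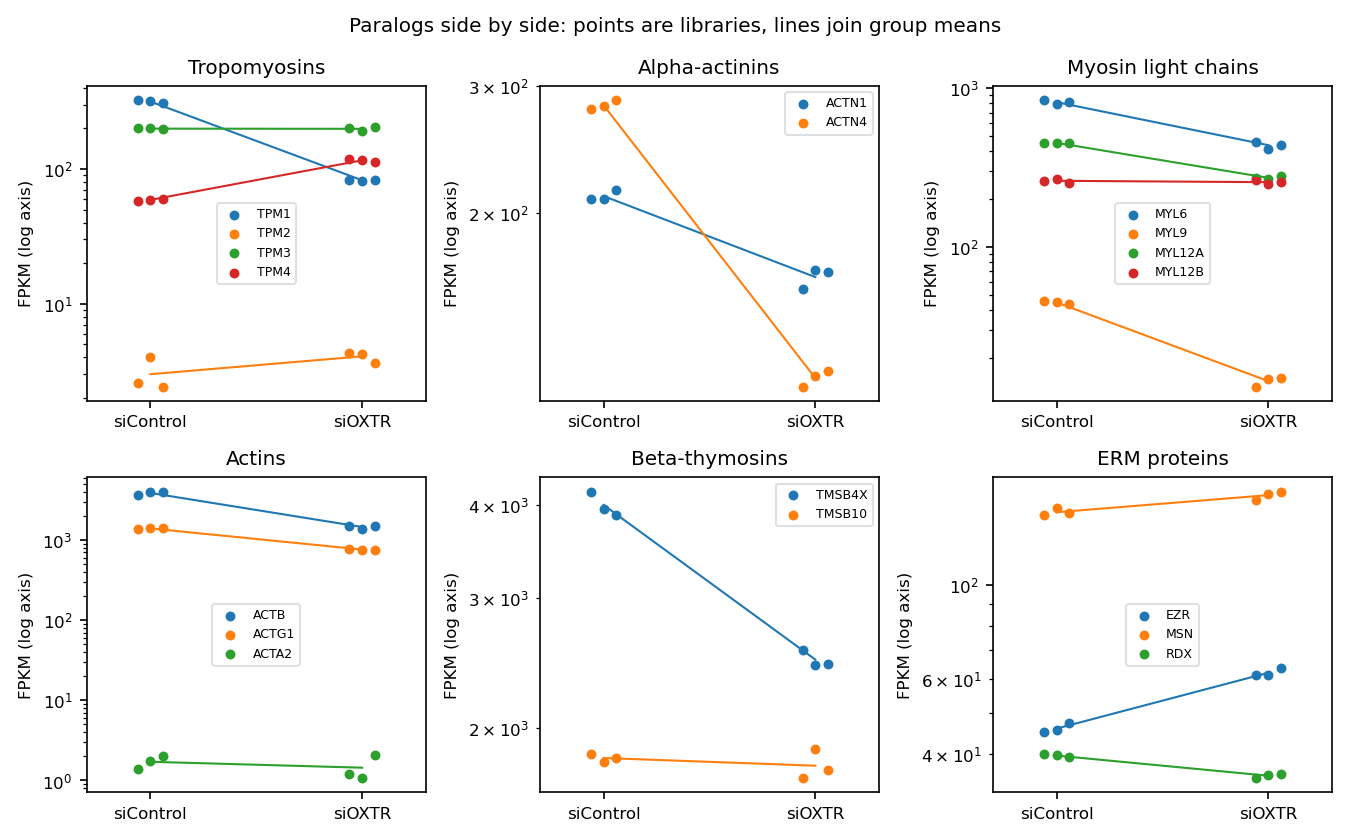
FPKM on a log axis of the members of 6 paralog families in siControl and siOXTR; points are the 3 libraries of a group and lines join the group means. The lines of TPM1 cross those of TPM3 and TPM4, and the line of ACTN4 crosses that of ACTN1, while TPM3, MYL12B and TMSB10 run nearly level.

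Of the 18 genes for filament-binding and contractile proteins, tropomyosins included, 14 fell (77.8%) and 2 rose (11.1%), with a median log2 change of -0.67. The shares over all genes tested were 44.8% and 37.7%. CALD1, which encodes caldesmon, an inhibitor of myosin activity on actin, was at 48.6, 47.8 and 49.97 FPKM in siControl and at 6.35, 5.89 and 6.06 FPKM in siOXTR. Its mean was 8.001-fold lower (log2 change -2.81, SE 0.04), the largest change among the members. TAGLN, the gene of the calponin-related filament binder transgelin and a classical SRF target, was at 12.8, 13.9 and 12.3 FPKM in siControl and at 3.47, 2.87 and 3.41 FPKM in siOXTR (log2 change -1.72, SE 0.07). Its paralog TAGLN2 was at 312, 298 and 298 FPKM in siControl and at 161, 152 and 156 FPKM in siOXTR (log2 change -0.95, SE 0.03). In both, all siOXTR libraries lay below all siControl libraries, and TAGLN2 stayed the more abundant paralog. The calponin genes CNN1, CNN2 and CNN3 fell to different degrees. CNN1, known from smooth muscle, was at 6.06, 5.30 and 5.73 FPKM in siControl and at 3.98, 4.86 and 4.94 FPKM in siOXTR, a narrow gap between the groups (log2 change -0.26, SE 0.08). CNN2 was at 124, 123 and 123 FPKM in siControl and at 58.6, 57.9 and 57.1 FPKM in siOXTR, 2.13-fold lower (log2 change -1.08, SE 0.02). CNN3 fell from 118 ± 0.336 to 80.0 ± 0.892 FPKM (log2 change -0.55, SE 0.02). CNN2 was slightly above CNN3 in every siControl library, with a ratio of 1.04 to 1.05, and below it in every siOXTR library, with a ratio of 0.715 to 0.734. The call for CNN1 was lost under quantile scaling (log2 change -0.16, limma adjusted p = 0.0620). CNN2 has 11 pseudogenes named after it, so its level is uncertain to that extent. Of the other smooth muscle markers above 1 FPKM, SMTN was at 16.04, 16.51 and 15.57 FPKM in siControl and at 9.37, 9.71 and 8.81 FPKM in siOXTR, whereas LMOD1 was higher, at no less than 4.45 FPKM in siOXTR and at most 0.13 FPKM in siControl. The part of these markers in the CNN1 and TAGLN values was not tested.

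The genes of nonmuscle myosin II fell in their heavy chains and in most light chains. MYH9, the heavy chain of myosin IIA, was at 189, 190.0 and 188 FPKM in siControl and at 119, 124 and 127 FPKM in siOXTR (log2 change -0.61, SE 0.03). MYH10, the heavy chain of myosin IIB, was at 32.5, 32.9 and 33.7 FPKM in siControl and at 15.6, 15.2 and 16.6 FPKM in siOXTR (log2 change -1.02, SE 0.04). Neither had overlapping groups, and the ratio of MYH9 to MYH10 was 5.58 to 5.82 in siControl and 7.63 to 8.15 in siOXTR. Among the regulatory light chains, MYL9 was at 45.4, 44.8 and 43.8 FPKM in siControl and at 13.2, 14.8 and 14.9 FPKM in siOXTR, 3.13-fold lower (log2 change -1.58, SE 0.04). MYL12A fell from 451 ± 0.389 to 272 ± 5.57 FPKM (log2 change -0.73, SE 0.02). MYL12B was at 259.8, 269 and 253 FPKM in siControl and at 262, 247 and 257 FPKM in siOXTR, its groups overlapped, and it did not pass the threshold (log2 change -0.03, or -0.09 under quantile scaling, where it passed, and 0.03 under median-ratio scaling, where it did not). The ratio of MYL12A to MYL12B was 1.68 to 1.79 in siControl and 1.03 to 1.08 in siOXTR. These are neighbouring genes on chromosome 18, and 3.95% of the windows of 50 bases of MYL12A transcripts occurred in MYL12B, the highest share among the pairs. The essential light chain gene MYL6 fell from 814 ± 21.6 to 436 ± 22.9 FPKM (log2 change -0.90, SE 0.04), and MYLK, which encodes the kinase that activates regulatory light chains, fell from 37.5 ± 0.827 to 27.2 ± 1.00 FPKM (log2 change -0.45, SE 0.03). MYO1E, a class I myosin gene that links membrane to actin, fell least of the myosin genes among the members that fell, from 12.6 ± 0.347 to 10.6 ± 0.181 FPKM (log2 change -0.22, SE 0.04).

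**Figure D3:**
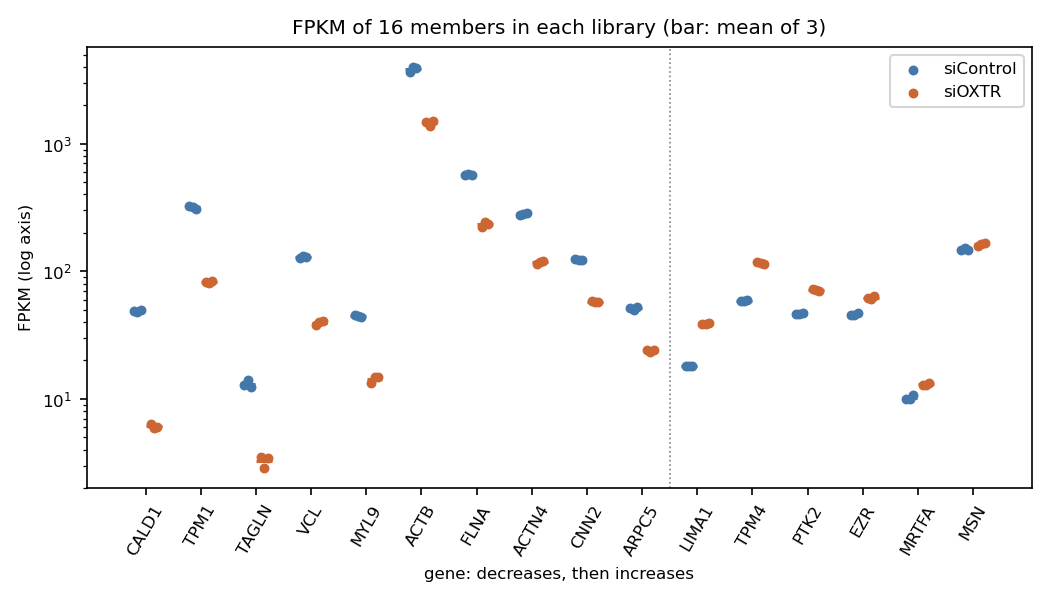
FPKM on a log axis of the 10 members with the largest decreases and the 6 with the largest increases among members with separated groups and a mean of at least 5 FPKM; points are libraries and bars are means of 3. No siControl point overlaps the siOXTR points of the same gene; CALD1 has the widest gap and MSN the narrowest.

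The 6 crosslinking and bundling genes fell, against 44.8% of all genes tested, with a median log2 change of -0.50 and differences between paralogs. The alpha-actinins link neighbouring filaments. ACTN4 was at 278, 281 and 287 FPKM in siControl and at 114, 118 and 120.3 FPKM in siOXTR, 2.40-fold lower (log2 change -1.25, SE 0.03). ACTN1 was at 209, 209 and 215 FPKM in siControl and at 157, 166 and 165 FPKM in siOXTR (log2 change -0.37, SE 0.03). ACTN4 was the higher of the pair in each siControl library and ACTN1 in each siOXTR library: the ratio of ACTN1 to ACTN4 was 0.742 to 0.750 in siControl and 1.37 to 1.41 in siOXTR. FLNA, which encodes filamin A, a crosslinker of filaments into networks, was at 564, 579.5 and 569.6 FPKM in siControl and at 223, 244 and 235 FPKM in siOXTR (log2 change -1.28, SE 0.03). FLNC was at 7.92, 7.82 and 7.62 FPKM in siControl and at 6.95, 7.22 and 7.17 FPKM in siOXTR (log2 change -0.12, SE 0.04). FLNA fell 2.44-fold and FLNC 1.09-fold, and the groups of neither overlapped. The call for FLNC was lost without siControl replicate 1, siControl replicate 2, siOXTR replicate 1 or siOXTR replicate 3 (limma adjusted p from 0.0567 to 0.0858, log2 change -0.10 to -0.12) and under both scalings (log2 change -0.04 and -0.06). Of the plastins, which bundle filaments, PLS3 was at 111, 108 and 111 FPKM in siControl and at 72.8, 68.6 and 71.2 FPKM in siOXTR (log2 change -0.63, SE 0.03). LCP1, best known from leukocytes, was at 2.08, 2.13 and 2.39 FPKM in siControl and at 1.72, 1.63 and 1.76 FPKM in siOXTR (log2 change -0.24, SE 0.07), and its call was lost under quantile scaling (log2 change -0.09). The groups of neither plastin overlapped, and PLS3 was the abundant form throughout.

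Of the 12 focal adhesion and LIM genes tested, 7 fell (58.3%) and 3 rose (25.0%), with a median log2 change of -0.32. Over all genes tested, 44.8% fell and 37.7% rose. VCL, which encodes vinculin, the link between talin and actin, was at 127, 131 and 130.2 FPKM in siControl and at 37.7, 40.2 and 40.8 FPKM in siOXTR, 3.27-fold lower (log2 change -1.69, SE 0.03). TLN1, which encodes talin, had means of 28.9 ± 0.588 and 29.1 ± 0.962 FPKM and overlapping groups (log2 change 0.01, not past the threshold). Its value turned to -0.01 without siControl replicate 1 and to -0.02 without siOXTR replicate 2. The adaptor genes ZYX (zyxin) and PXN (paxillin) fell by 0.68 and 0.54 on the log2 scale, and TNS3, a tensin gene, fell by 0.45. ZYX went from 66.5 ± 3.01 to 41.0 ± 0.154 FPKM, PXN from 47.0 ± 1.76 to 32.1 ± 0.918 FPKM and TNS3 from 23.8 ± 0.125 to 17.2 ± 0.966 FPKM, with no overlap between the groups in any of them. PDLIM7, a PDZ and LIM protein gene, was at 63.4, 61.5 and 58.2 FPKM in siControl and at 30.6, 29.2 and 31.5 FPKM in siOXTR (log2 change -0.98, SE 0.04). PDLIM5 was at 25.9, 27.4 and 27.2 FPKM in siControl and at 17.4, 17.9 and 17.5 FPKM in siOXTR (log2 change -0.58, SE 0.03). Both were lower in every siOXTR library, PDLIM7 the more so, and the ratio of PDLIM5 to PDLIM7 was 0.409 to 0.468 in siControl and 0.554 to 0.612 in siOXTR. The LIM-only gene FHL1 was at 24.6, 27.1 and 24.9 FPKM in siControl and at 21.5, 23.0 and 21.9 FPKM in siOXTR, a small fall (log2 change -0.20, SE 0.04). Its paralog FHL2, an SRF target, was at 31.0, 31.7 and 29.4 FPKM in siControl and at 32.2, 31.6 and 30.1 FPKM in siOXTR, with overlapping groups and no call (log2 change 0.03, and close to 0 without siControl replicate 3).

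The member with the largest rise, LIMA1, was in this role too. LIMA1, which encodes a LIM protein that bundles and stabilises filaments, was at 18.1, 18.2 and 18.1 FPKM in siControl and at 38.9, 38.4 and 39.6 FPKM in siOXTR (log2 change 1.06, SE 0.03). PTK2, the gene of focal adhesion kinase, was at 46.1, 46.4 and 47.1 FPKM in siControl and at 73.2, 71.1 and 69.8 FPKM in siOXTR (log2 change 0.61, SE 0.03). Their groups were fully separated, with LIMA1 2.15-fold and PTK2 1.53-fold the siControl mean. ILK, which encodes an adaptor of integrin tails, rose by a small amount, from 48.5 ± 1.00 to 51.3 ± 1.20 FPKM (log2 change 0.08, SE 0.03). Its call was lost without siControl replicate 2, siControl replicate 3, siOXTR replicate 1 or siOXTR replicate 2 (limma adjusted p from 0.0578 to 0.103, log2 change 0.06 to 0.08).

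Genes for monomer binding and filament turnover fell in 10 of 11 cases (90.9%), against 44.8% of all genes tested, with a median log2 change of -0.66. TMSB4X, which encodes the main monomer-sequestering thymosin, was at 4168, 3954 and 3881 FPKM in siControl and at 2551, 2431 and 2446 FPKM in siOXTR (log2 change -0.69, SE 0.03). TMSB10 was at 1847, 1801 and 1824 FPKM in siControl and at 1714, 1873 and 1756 FPKM in siOXTR, with overlapping groups and no call (log2 change -0.04). TMSB4X was 2.13 to 2.26 times the level of TMSB10 in siControl and 1.298 to 1.49 times in siOXTR. TMSB10 passed, as lower, without siOXTR replicate 2 (log2 change -0.07) and under quantile scaling (-0.15), whereas median-ratio scaling gave 0.03. CFL1, which encodes the filament-severing protein cofilin, was at 685, 677 and 646 FPKM in siControl and at 393, 377 and 417 FPKM in siOXTR (log2 change -0.76, SE 0.04). DSTN, its paralog destrin and a known SRF-responsive gene, was at 278, 281 and 286 FPKM in siControl and at 203, 197 and 195 FPKM in siOXTR (log2 change -0.50, SE 0.03). Both fell without overlap, CFL1 slightly more. PFN1, which encodes the monomer-loading protein profilin, fell from 1059 ± 23.4 to 799 ± 12.4 FPKM (log2 change -0.41, SE 0.03).

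ARPC5 and ARPC2 encode subunits of the Arp2/3 complex, which starts new branches on filaments, and fell unequally. ARPC5 was at 51.7, 49.5 and 52.8 FPKM in siControl and at 24.0, 23.4 and 24.2 FPKM in siOXTR, 2.15-fold lower (log2 change -1.07, SE 0.03). ARPC2 fell from 302 ± 4.69 to 255 ± 8.96 FPKM (log2 change -0.24, SE 0.03), and the capping gene CAPZA1 fell from 138 ± 0.203 to 119.8 ± 4.35 FPKM (log2 change -0.20, SE 0.03). Of the severing and coronin genes, GSN (gelsolin) fell from 47.8 ± 0.433 to 28.7 ± 0.506 FPKM. CORO1C was at 90.1, 92.5 and 91.7 FPKM in siControl and at 57.0, 57.5 and 57.8 FPKM in siOXTR (log2 change -0.66, SE 0.02). CORO1A, the leukocyte coronin, was at 3.86, 3.65 and 4.14 FPKM in siControl and at 0.660, 0.470 and 0.680 FPKM in siOXTR (log2 change -1.61, SE 0.08). All siOXTR values of CORO1A lay below 1 FPKM, where a log2(FPKM + 1) change understates the 6.44-fold difference of the means. CORO1A was the single member that passed the filter on low values through the siControl libraries alone, so it had to be lower in siOXTR. It is counted among the 42 members that fell and the 12 that fell by at least 1, and it was not tested where a siControl library was left out or the filter stood at 5 FPKM. Of the leukocyte markers, CD68 was at 5.91, 5.55 and 6.52 FPKM in siControl and at 10.08, 10.09 and 11.86 FPKM in siOXTR. PTPRC was at 1.01, 0.65 and 0.79 FPKM in siControl and at 0.27, 0.65 and 0.62 FPKM in siOXTR. LYZ was at 0.77, 0.64 and 0.57 FPKM in siControl and at 0.60, 0.40 and 0.50 FPKM in siOXTR. ITGAM was at 0.15, 0.21 and 0.17 FPKM in siControl and at 0.37, 0.22 and 0.16 FPKM in siOXTR. CD68 thus lay higher in every siOXTR library. PTPRC and LYZ had lower siOXTR means and ITGAM a higher one, all with groups that touched or overlapped. The part of these markers in the CORO1A and LCP1 values was not tested.

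The ERM proteins tie actin filaments to the plasma membrane. Their genes were the role in which most members rose, 2 of 3, against 37.7% of all genes tested. EZR, which encodes ezrin, was at 45.03, 45.4 and 47.1 FPKM in siControl and at 61.4, 61.2 and 63.6 FPKM in siOXTR (log2 change 0.43, SE 0.03). RDX, which encodes radixin, was at 39.9, 39.6 and 39.2 FPKM in siControl and at 35.04, 35.6 and 35.8 FPKM in siOXTR (log2 change -0.15, SE 0.03). MSN, which encodes moesin and is the most abundant of the 3, was at 146, 151 and 147 FPKM in siControl and at 158, 164 and 165 FPKM in siOXTR (log2 change 0.13, SE 0.03). The groups were separated in all 3 genes, upward in EZR and MSN and downward in RDX. The ratio of EZR to RDX was 1.13 to 1.20 in siControl and 1.72 to 1.77 in siOXTR.

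Paralogs were also compared within each library, where the scaling of the library cancels in a ratio of FPKM. Shifts are differences of log2(FPKM + 1) between paralogs, siOXTR minus siControl. The 32 pairs came from 16 families with at least 2 tested members. In 31 pairs the ratios of the siControl and siOXTR libraries did not overlap, the exception being TPM2 over TPM3. Since 83.0% of single genes tested had groups that did not overlap, and no share over other gene pairs was computed, nothing particular to paralogs is read from that count. The shift in 22 pairs was at least 0.5 on the log2 scale. The more abundant paralog changed in 4 pairs: TPM1 over TPM3, TPM1 over TPM4, CNN2 over CNN3 and ACTN1 over ACTN4. These counts of 22 and 4 also lack a share over other gene pairs, so nothing particular to paralogs is read from them. No pair other than MYL12A and MYL12B, ACTN1 and ACTN4, ACTB and ACTG1, and FLNA and FLNC shared any exact window of 50 bases, which leaves 28 pairs with none. No test is given for these shifts, since they come from the same comparison as the list.

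**Figure D4:**
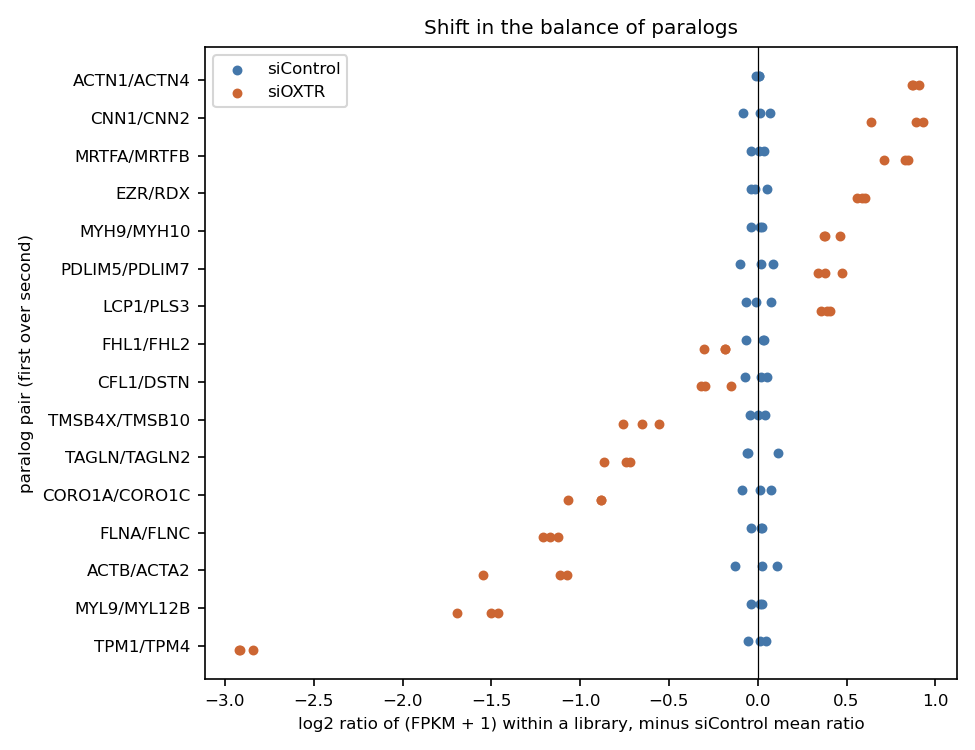
Within-library log2 ratio of (FPKM + 1) of paralog pairs, minus the siControl mean ratio of the pair; points are libraries and the pair with the largest shift in each of 16 families is shown. The shifts run from -2.89 for TPM1/TPM4 to 0.88 for ACTN1/ACTN4, and in every pair shown the siOXTR points lie apart from the siControl points.

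Other genes of the same machinery were taken from 4 further lists with 129 entries, 5 genes of which are in more than 1 list. Beside their counts stand the 37.7% of all genes tested that rose and the 44.8% that fell. Of 28 other Arp2/3, WAVE, capping and turnover genes, 18 fell (64.3%) and 8 rose (28.6%), with a median log2 change of -0.17. The capping gene CAPZB fell from 184 ± 6.19 to 101 ± 2.26 FPKM, and EVL, which speeds filament elongation, from 16.03 ± 0.812 to 8.49 ± 0.335 FPKM. The WAVE complex genes ABI1 and WASF2 rose by 0.79 and 0.74 on the log2 scale. Of 26 other focal adhesion genes, 13 rose (50%) and 10 fell (38.5%), a larger share rising and a smaller share falling than over all genes, with a median of 0.10. Among them, TRIP6, a zyxin relative, rose from 28.9 ± 0.450 to 76.7 ± 3.41 FPKM, and the phosphatase gene PTPN12 from 49.8 ± 1.14 to 109 ± 1.11 FPKM. The scaffold genes NEDD9 and KANK2 fell, with log2 changes of -0.93 and -0.59. LPXN, counted among the 13 that rose, was at 1.15, 0.71 and 0.84 FPKM in siControl and at 2.59, 2.03 and 1.70 FPKM in siOXTR. Only replicate 1 of its siControl libraries reached 1 FPKM, so LPXN passed the filter on low values through its siOXTR libraries. TNS2, counted among the 10 that fell, passed the filter on low values through the siControl libraries alone, so it had to be lower in siOXTR. Of 35 other bundling, crosslinking and motor genes, 14 rose (40.0%) and 15 fell (42.9%), near the shares of all genes, with a median of -0.06. FHL3, a LIM-only paralog of FHL1 and FHL2, rose from 5.24 ± 0.252 to 13.2 ± 0.955 FPKM. ANLN, which encodes the cytokinesis scaffold anillin, and the plastin gene PLS1 fell, with log2 changes of -1.13 and -1.05. MYO1D, counted among the 15 that fell, also passed the filter through the siControl libraries alone.

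SRF target genes outside the members went both ways: of 23 tested, 12 rose (52.2%) and 11 fell (47.8%), against 37.7% and 44.8% of all genes tested, with a median log2 change of 0.29. The list was not divided by the co-activator that acts with SRF, so these counts do not describe targets of MRTFA and MRTFB alone. CCN2, a matricellular growth factor gene, was at 78.9, 80.0 and 84.1 FPKM in siControl and at 2.21, 2.11 and 2.30 FPKM in siOXTR. THBS1, which encodes thrombospondin, was at 52.7, 56.6 and 54.8 FPKM in siControl and at 3.14, 3.73 and 3.70 FPKM in siOXTR. Both lay far below siControl in every siOXTR library. FILIP1L and the nuclear receptor gene NR4A1 were higher, with log2 changes of 1.12 and 0.85. LMOD1, the smooth muscle filament-nucleating leiomodin, was chosen after its values were seen: it was at 0.10, 0.130 and 0.0900 FPKM in siControl and at 4.45, 4.73 and 4.54 FPKM in siOXTR. It passed the filter on low values through the siOXTR libraries alone, so it had to be higher there. It is counted among the 12 that rose.

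**Figure D5:**
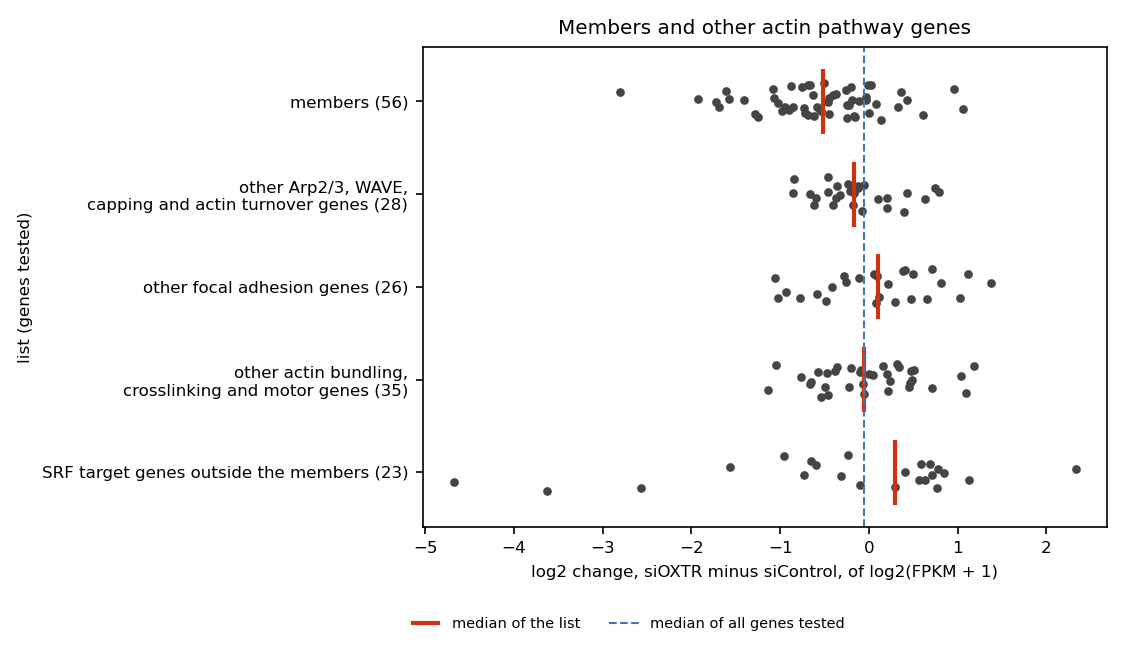
Log2 change of each gene tested, 1 point per gene, for the members and for 4 further lists of actin pathway genes; red bars are list medians and the dashed line is the median of all genes tested, -0.06. The member median lies at -0.52, the medians of the other lists between -0.17 and 0.29, and single genes reach -4.68 (CCN2) and 2.33 (LMOD1). LMOD1 passed the filter on low values through the siOXTR libraries alone.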

How the data were processed

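Libraries were made by the BGISEQ-500 protocol from Trizol lysates, per the labels. The deposited values are FPKM per gene, per the file headers, named by NCBI gene ID and symbol. Aligner, counter, genome build and filters: not given in the sources used here. Depth is unknown. Among low values, 11.6% of 1241 ratios to the gene's lowest value in its group lay within 0.1 of a whole number. An even spread gives 20%, but ratios of libraries in a group need not be evenly spread. The share therefore cannot decide whether whole reads can be recovered. Values were transformed as log2(FPKM + 1) and genes with at least 1 FPKM in at least 3 libraries were fitted with limma 3.58.1 (R 4.3.3), group as single factor, empirical Bayes with a mean-variance trend, two-sided, Benjamini-Hochberg over 11655 genes. The fit was tested on simulated data with independent noise and far fewer changed genes than were called here. That test therefore does not check the calls of the real comparison. Members and lists were chosen with earlier results of these data known. Per-library values are given for the 10 largest decreases and 6 largest increases with separated groups and a mean of at least 5 FPKM, for the pair with the largest shift in each paralog family, and for SRF, its co-activators and OXTR; those of TPM2 were added after its values were seen; in each further list, the 2 largest changes each way at that level are named, except for items not reported here. Alternatives were pseudocounts of 0.1 and 0.01, other filters, quantile and median-ratio scaling, robust moderation, a block for the replicate number, and omission of single libraries. Promoter windows came from RefSeq, GRCh38.p14; pseudogene names and transcripts from GENCODE release 29.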

Additional observations from a re-analysis of the deposited data

How the results depend on the processing

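Counts of members, of SRF target genes outside the members and of all genes past the threshold stayed within 1.5 times their values under all alternatives; 6 to 8 members rose and 40 to 43 fell when a library was left out. The median log2 change of the members, -0.52, was -0.54 at a pseudocount of 0.1 and -0.54 at 0.01, -0.48 with no filter on low values, -0.54 with a filter at 5 FPKM, -0.55 under quantile and -0.46 under median-ratio scaling, and -0.49 to -0.52 without single libraries. Quantile scaling put the median over all genes at 0.0026, and with it 4801 genes were higher and 4714 lower, against 4395 and 5218. Values near 0 changed sign under median-ratio scaling (TPM3 to 0.0553, MYL12B to 0.032, TMSB10 to 0.0256), without siControl replicate 1 (TLN1 to -0.0113), without siControl replicate 3 (FHL2 to -0.0008) and without siOXTR replicate 2 (TPM3 to 0.0181, TLN1 to -0.0162); single-library omissions spanned -0.0238 to 0.0181 for TPM3, -0.0162 to 0.0298 for TLN1 and -0.0008 to 0.0556 for FHL2. The cause was not tested. The TPM2 call was also lost with no filter (limma adjusted p = 0.0707). With the replicate number as a block, 8 members rose and 41 fell, FLNC being lost (limma adjusted p = 0.0548), and 4388 and 5205 genes were called over all. Same-numbered libraries did not deviate together (correlations -0.012, -0.073 and 0.039), and not every library correlated best with its own number. No shared effect of the replicate number was thus seen, which cannot show whether same-numbered samples were prepared together. Shifts in paralog balance that involve low genes depended on the pseudocount: CORO1A over CORO1C went from -0.95 to -1.84 at 0.1 and -2.01 at 0.01. Without read counts, the depth behind each value cannot be given.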
